A study of Mus musculus with 4 samples.

Results

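The 9 genes described here carry retinoic acid synthesis and signalling: Aldh1a1, Aldh1a2 and Aldh1a3 (synthesis), Stra6 and Rbp4 (retinol transport), Crabp2 (carrier), Cyp26b1 (clearance), and Rara and Rarb (receptors). They were chosen by name, with earlier results of these data known, and all 9 were found among the 33696 gene features of the count matrices. Unique molecular identifiers (UMIs) of each gene were read by cell class, fibroblast state, region and library. The nuclei came from mouse brain with a photothrombotic (PT) lesion, in which an illuminated dye closes cortical vessels, at 21 days post-injury (dpi). The library labelled control was from mice given as WT, and the library labelled Cxcl12-cKO from mice carrying Col1a2(creER), a tamoxifen-inducible Cre driven in fibroblasts, and Cxcl12(flox). Each library pooled tissue of 1 male and 1 female mouse. Nuclei of the dissected lesion and of the perilesional cortex, here parenchyma, were tagged apart, mixed at 75% lesion and 25% parenchyma, and sorted by DAPI.

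Retinoic acid is made from retinol (vitamin A) in a pair of oxidation steps, and the second step is carried out by the ALDH1A enzymes. It enters the nucleus, binds retinoic acid receptors paired with retinoid X receptors on DNA, and is broken down by CYP26 enzymes, so that neighbouring cells can act as source and sink. In the brain the meninges are a known source of retinoic acid, and fibroblasts of the pia and arachnoid are known for Aldh1a2.

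There was 1 library per genotype, so no test and no p-value is given. A level is a sum of UMIs over the nuclei of a group, in CPM, the UMIs of the gene per 1000000 UMIs of that group. Brackets give 95% intervals for counting error only, exact Poisson for a level, exact binomial for a share of nuclei and exact conditional binomial for a ratio. UMIs of 1 nucleus are not independent, so these intervals are too narrow, and they hold no spread between animals. A difference was taken as past the threshold when a log2 ratio exceeded 1.5-fold and the gene had at least 20 UMIs in the groups compared. CPM values of different genes are not compared with each other, since the counts hold no correction for length.

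The matrices held 23489 barcodes, and 21743 nuclei were kept. Median depth was 2962 and 2975 UMIs per lesional nucleus in the libraries labelled control and Cxcl12-cKO, and 15915 and 16648 per parenchymal nucleus. There were 47 barcode sequences shared by both libraries. The targeted gene, the chemokine Cxcl12, went against its label. In lesional fibroblast-like nuclei it had 1505 UMIs (107 CPM [102 to 113]) in the control-labelled library and 3126 UMIs (216 CPM [209 to 224]) in the cKO-labelled library. The sources used here do not say which part was deleted, and 3′ counts do not show a deletion elsewhere in the gene. Differences between libraries are therefore given by label only, as the control-labelled and the cKO-labelled library, and paired values stand in that order. Classes were named by marker genes with the 9 genes kept out of clustering. Of 8 fibroblast markers, 7 were highest in fibroblast-like nuclei once the osteoblast lineage-like and ependymal-like clusters were set aside, and 2 when these were kept. Of 8 astrocyte markers, 7 and 5 were highest in astrocyte-like nuclei by the same counts. The endothelial-like cluster also had 7 markers of mural cells (pericytes and smooth muscle) raised, with Rgs5 among its leading genes. No class was named mural, so endothelial-like nuclei may include mural cells.

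Rarb is a receptor gene that retinoic acid is known to induce through a direct repeat in its own promoter, and the sequence of that promoter is shown with that of Cyp26a1, the other gene of the pathway that held such a repeat. RefSeq promoter windows of 250 bases before to 50 bases after a gene start were at hand for 7 of the 9 genes and 41 of 54 further pathway genes, on GRCm38.p6, which is another build than that of the counts. The half-site searched on both strands was AGGTCA, or alternatively AGTTCA, or else GGGTCA, or lastly GGTTCA, each as a direct repeat of any of these with 1, 2 or 5 bases between. The repeat spaced by 5 bases was found in 32 of 32851 windows (0.0974%). The window of Rarb (chr14:16575427-16575726, minus strand) held it at 53 to 37 bases before the start, and that of Cyp26a1 (chr19:37697558-37697857, plus strand) at 32 to 16 bases before the start, read there on the opposite strand. Capitals mark the half-sites, and each sequence runs 5′ to 3′ across the start of the gene.
Rarb: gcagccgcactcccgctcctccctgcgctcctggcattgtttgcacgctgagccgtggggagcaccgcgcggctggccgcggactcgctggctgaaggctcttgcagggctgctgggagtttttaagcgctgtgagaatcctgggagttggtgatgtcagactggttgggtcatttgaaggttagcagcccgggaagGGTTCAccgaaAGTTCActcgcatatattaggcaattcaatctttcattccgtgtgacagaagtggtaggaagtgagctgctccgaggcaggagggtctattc
Cyp26a1: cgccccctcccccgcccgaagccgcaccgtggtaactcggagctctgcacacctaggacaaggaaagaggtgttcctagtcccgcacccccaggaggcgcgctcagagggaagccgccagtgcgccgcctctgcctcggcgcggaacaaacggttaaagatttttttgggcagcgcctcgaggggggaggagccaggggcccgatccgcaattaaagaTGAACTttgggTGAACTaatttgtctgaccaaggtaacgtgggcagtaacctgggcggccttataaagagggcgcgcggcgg

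The repeat spaced by 2 bases was in 88 windows (0.268%) and that spaced by 1 base in 73 (0.222%). Neither was in a window of the 9 genes, and the latter was in that of Bco1, which encodes the enzyme that splits beta-carotene. A match describes letters in a window and is not a binding site.

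Synthesis genes lay in different classes of the lesion. Aldh1a2 (ENSMUSG00000013584), the enzyme known as RALDH2, was counted mainly in fibroblast-like nuclei, with 1209 UMIs at 86.0 CPM [81.3 to 91.0] in the control-labelled library and 1382 UMIs at 95.6 CPM [90.6 to 101] in the cKO-labelled library. These nuclei held 90.4% and 87.4% of the lesional Aldh1a2 UMIs, against 42.0% and 46.9% of all lesional UMIs. The log2 ratio over the other lesional nuclei was 3.69 [3.43 to 3.97] and 2.98 [2.76 to 3.20]. A UMI of Aldh1a2 was found in 13.8% of the 4058 and 15.2% of the 4018 fibroblast-like nuclei, at median depths of 3091 and 3110 UMIs. In myeloid-like nuclei the shares were 0.745% and 1.10%, at 2042 and 2254 UMIs. With each nucleus thinned to 1000 UMIs the fibroblast shares were 7.43% and 7.34% and the myeloid shares 0.397% and 0.662%, with 101, 92, 99 and 120 nuclei too shallow and left out. The shares in fibroblast-like nuclei were thus well above those in myeloid-like nuclei in both libraries. The level of free RNA was not measured.

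Aldh1a1 (ENSMUSG00000053279), the enzyme known as RALDH1, had its highest level in lesional astrocyte-like nuclei, not in fibroblasts. The 537 astrocyte-like nuclei of the control-labelled library had 1427 UMIs at 624 CPM [592 to 658], and the 526 of the cKO-labelled library had 862 UMIs at 341 CPM [318 to 364]. The log2 ratio over the other lesional nuclei was 4.39 and 3.51. In fibroblast-like nuclei Aldh1a1 stood at 54.4 CPM [50.7 to 58.4] and 49.5 CPM [45.9 to 53.2], and in myeloid-like nuclei at 3.87 and 5.38 CPM. Astrocyte-like nuclei thus held 60.5% and 50.5% of all lesional Aldh1a1 UMIs, and fibroblast-like nuclei 32.4% and 41.9%. In bulk terms a class total mixes cell number with RNA per nucleus, so the CPM and not the share is the level within a class.

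Aldh1a3 (ENSMUSG00000015134), the enzyme known as RALDH3, was rare. It had 150 UMIs in all kept nuclei, of which 20 and 50 were in lesional fibroblast-like nuclei, at 1.42 CPM [0.869 to 2.20] and 3.46 CPM [2.57 to 4.56]. Myeloid-like nuclei had 0 UMIs (3 counts would be 0.775 CPM) and 1 UMI. Osteoblast lineage-like nuclei had 4 UMIs among 461 nuclei and 2 UMIs among 138, at 3.27 and 5.50 CPM with wide intervals that overlap those of fibroblasts.

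Retinol uptake and the retinoic acid carrier followed Aldh1a2 into fibroblasts. Stra6 (ENSMUSG00000032327), the membrane receptor that takes up retinol from its plasma carrier, had 567 UMIs at 40.4 CPM [37.1 to 43.8] and 541 UMIs at 37.4 CPM [34.3 to 40.7] in fibroblast-like nuclei, with a log2 ratio over the other lesional nuclei of 3.58 and 3.19. Endothelial-like nuclei came next among lesional classes of at least 50 nuclei in the control-labelled library, with 7 UMIs at 11.8 CPM [4.73 to 24.2]. Crabp2 (ENSMUSG00000004885), which hands retinoic acid to its receptors, had 93 UMIs at 6.62 CPM [5.34 to 8.11] and 81 UMIs at 5.60 CPM [4.45 to 6.96], and the log2 ratio was 2.40 in each library. Rbp4 (ENSMUSG00000024990), the retinol carrier of plasma, was close to absent from fibroblasts, with 5 and 9 UMIs at 0.356 and 0.622 CPM, and lay in neurons.

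Cyp26b1 (ENSMUSG00000063415), which breaks down retinoic acid, was higher in astrocyte-like than in other lesional nuclei. It had 25 UMIs at 10.9 CPM [7.08 to 16.2] and 29 UMIs at 11.5 CPM [7.68 to 16.5] there, and the log2 ratio was 2.94 [2.16 to 3.66] and 1.87 [1.19 to 2.47]. In fibroblast-like nuclei it had 30 UMIs at 2.14 CPM [1.44 to 3.05] and 69 UMIs at 4.77 CPM [3.71 to 6.04]. The only other class past 1.5-fold was endothelial-like nuclei, with 2 and 3 UMIs. Astrocyte-like nuclei thus stood above other lesional nuclei both for a synthesis gene, Aldh1a1, and for the clearance gene. This pairing was not theirs alone, since among fibroblast-like nuclei both genes were highest in the Lama1 state, described with the states.

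The receptors were broader. Rara (ENSMUSG00000037992) encodes the receptor RARα, and in fibroblast-like nuclei it had 636 UMIs at 45.3 CPM [41.8 to 48.9] and 692 UMIs at 47.9 CPM [44.4 to 51.6]. Its level was 62.9 CPM [49.7 to 78.7] and 71.5 CPM [46.7 to 105] in osteoblast lineage-like nuclei, 54.3 CPM [28.9 to 92.8] and 97.6 CPM [57.9 to 154] in T cell-like nuclei, and 35.3 CPM [21.8 to 53.9] and 49.2 CPM [28.7 to 78.8] in endothelial-like nuclei. These intervals overlap that of fibroblasts, except in osteoblast lineage-like nuclei of the control-labelled library and T cell-like nuclei of the cKO-labelled library, which lay above it. Myeloid-like nuclei were lower, at 16.5 and 16.8 CPM, as were lesional astrocyte-like nuclei at 14.9 and 16.997 CPM.

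Rarb (ENSMUSG00000017491) encodes the receptor RARβ and had the most UMIs of the 9 genes, 24220 in kept nuclei. Fibroblast-like nuclei of the lesion had 5509 UMIs at 392 CPM [382 to 403] and 5431 UMIs at 376 CPM [366 to 386]. A UMI was found in 53.0% and 54.4% of these nuclei, against 2.92% and 4.75% of myeloid-like nuclei, and thinned to 1000 UMIs the shares were 28.2% and 28.9% against 1.65% and 2.04%. Lesional astrocyte-like nuclei came lower, at 136 CPM [121 to 152] and 141 CPM [127 to 157]. The level in fibroblasts was passed by that in striatal projection neuron-like nuclei, described with the neurons.

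Across the lesion, 6 of the 9 genes were past 1.5-fold higher in fibroblast-like nuclei in both libraries (Aldh1a2, Aldh1a3, Stra6, Crabp2, Rara and Rarb), where 16.3% of the 17449 genes tested were. For Aldh1a3 the interval in the control-labelled library included no difference, at 0.97 [-0.08 to 2.08] from 20 and 14 UMIs. Rbp4 was past it lower, as were 25.3% of genes, and Aldh1a1 and Cyp26b1 were not past it in both. The median log2 ratio of the 9 genes was 1.29 and 1.37, beside 0.07 and -0.04 over all genes tested. For astrocyte-like nuclei 2 of 9 were past it higher, Aldh1a1 and Cyp26b1, beside 13.5% of genes, and Aldh1a2, Stra6, Rara and Rarb were lower, beside 20.8%. For myeloid-like nuclei none was higher, beside 23.4% of genes, and 8 were lower, beside 30.9%. All 9 were lower in excitatory neuron-like nuclei, where 52.1% of genes were. The counts in the smaller lesional classes were 2 higher (Aldh1a3 and Rara, beside 10.7% of genes) and 4 lower (17.2%) in osteoblast lineage-like nuclei, 1 higher (Cyp26b1, 14.2%) and 4 lower (14.4%) in endothelial-like nuclei, and 1 higher (Rbp4, 11.6%) and 8 lower (36.3%) in inhibitory neuron-like nuclei. In T cell-like nuclei Rara was higher and 3 genes were lower (13.8%), and Rbp4, at 0 UMIs there, passed on the higher side (25.9%) only through the pseudocount of 0.5. In oligodendrocyte-like and oligodendrocyte precursor-like nuclei 5 and 6 genes were lower, beside 25.4% and 25% of genes. Aldh1a3 in inhibitory neuron-like and Crabp2 in oligodendrocyte precursor-like nuclei had 0 UMIs in both libraries, with intervals that include no difference, so that their ratios depend on the pseudocount. Several of these counts lay near the background.

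**Figure D1:**
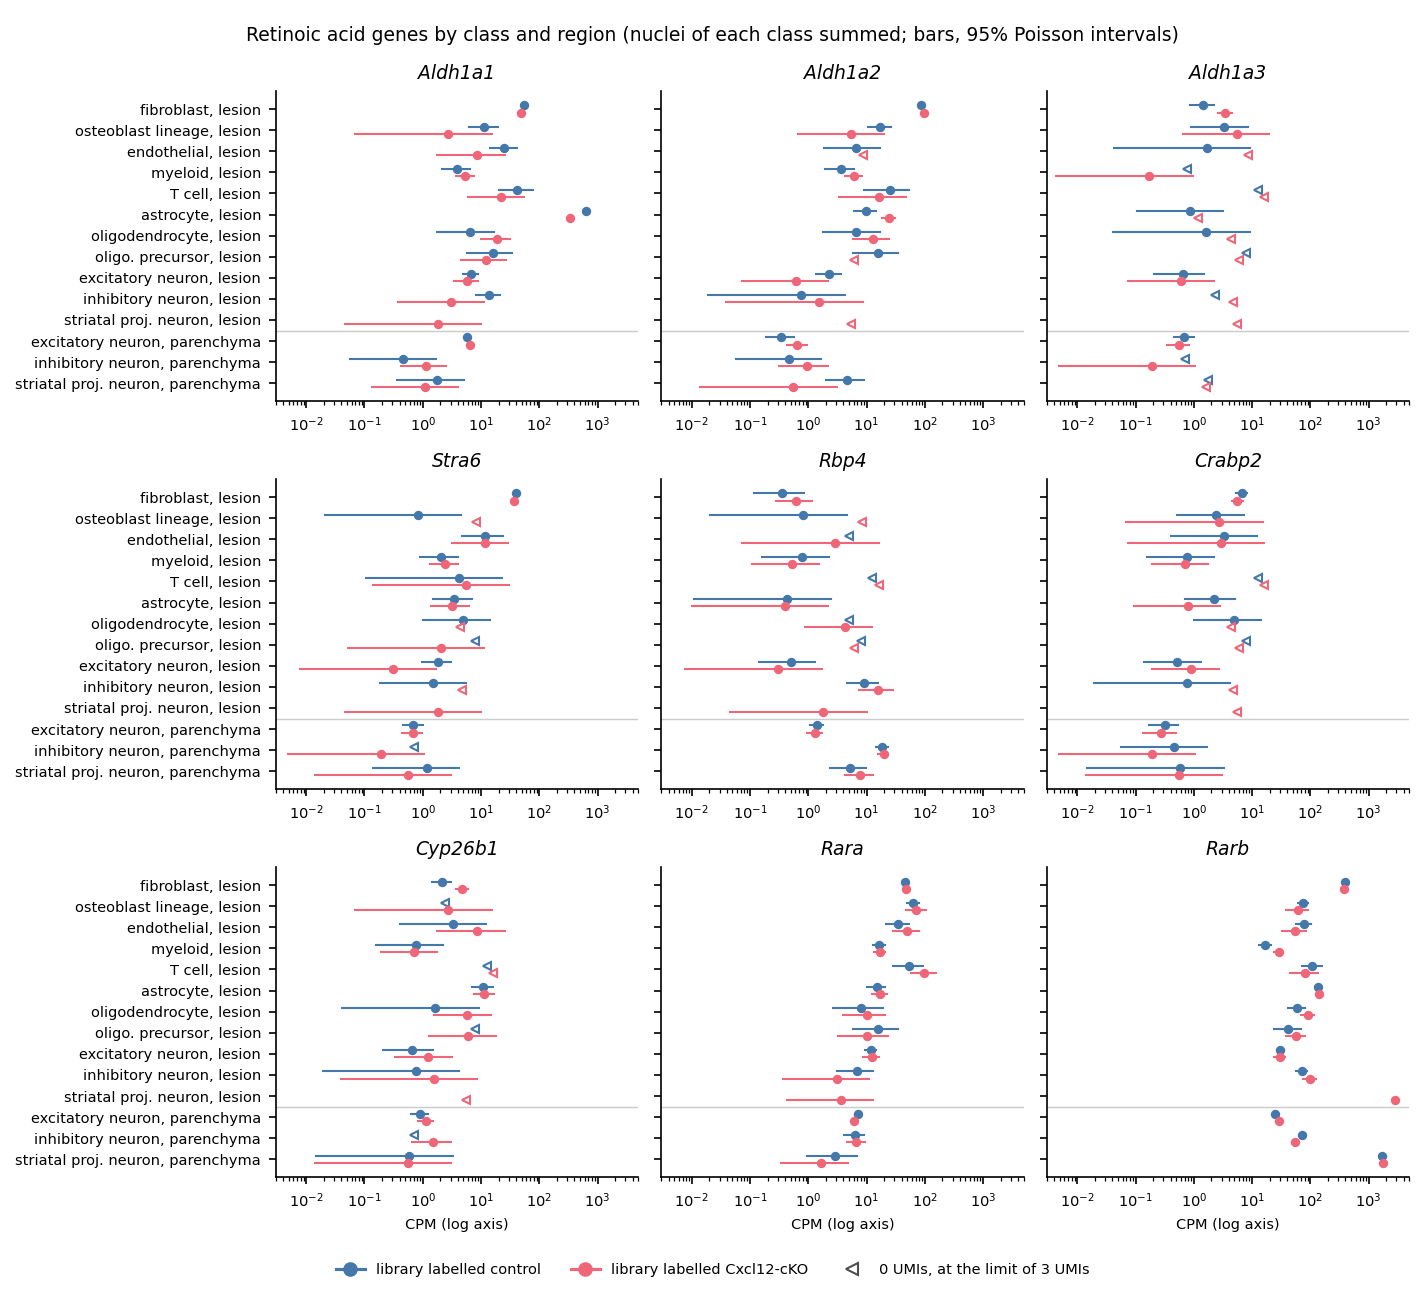
Level of each gene in CPM (log axis) by class and region, for groups of at least 50 nuclei, with the control-labelled library in blue and the cKO-labelled library in red. Points are sums over nuclei, bars are 95% Poisson intervals, and open triangles mark 0 UMIs at the limit of 3 UMIs. Aldh1a2, Stra6 and Crabp2 peak in lesional fibroblasts, Aldh1a1 in lesional astrocytes, Rbp4 in inhibitory neurons, and Rarb in striatal projection neurons.

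Other genes of retinoid handling were read from a list of 54. Of the 37 with enough UMIs, 15 were past 1.5-fold higher in lesional fibroblast-like nuclei than in other lesional nuclei in both libraries and 7 were lower, beside the same 16.3% and 25.3% of all genes. Zic1, a transcription factor of the meninges, was among the higher ones, with a log2 ratio of 3.21 and 3.11. So was Cyp2s1, an enzyme known to metabolise retinoic acid, at 2.29 and 1.40. The orphan nuclear receptor Rora stood at 1.09 and 1.45. Fabp5, which carries fatty acids and can carry retinoic acid, was lower, at -2.30 and -2.58. Rxrg, a retinoid X receptor, was lower as well, at -2.49 and -3.51.

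Lesional fibroblast-like nuclei fell into 4 states by subclustering without the 9 genes. The late inner-like state, named by Fgf13, Cdh18 and Sema3c, held 875 and 1248 nuclei in the libraries labelled control and Cxcl12-cKO. A state led by Prmt8 and Ccn3 matched no marker list and held 1520 and 1060. A leptomeningeal-like state led by Igfbp3 and Ranbp3l held 1284 and 1228, and a smaller leptomeningeal-like state, in which Lama1 was highest, held 379 and 482. These are called the late inner-like, Prmt8 Ccn3, Ranbp3l and Lama1 states. A finer subclustering at resolution 0.5 held 1606 nuclei named leptomeningeal and led by Nnat and Atp13a5. It also held 934 nuclei led by Prg4 and Kng2 that matched no marker list. Igfbp3 and Prg4 were leading genes of these 934 nuclei and of the Ranbp3l state, so that state may join more than 1 population. Each state was set beside the remaining lesional fibroblast-like nuclei, as a description of clusters made from these same nuclei.

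The synthesis genes divided the states. Aldh1a2 stood at 211 CPM [196 to 226] and 223 CPM [208 to 238] in the Ranbp3l state and at 256 CPM [228 to 287] and 278 CPM [252 to 305] in the Lama1 state. It stood at 15.6 and 12.4 CPM in the Prmt8 Ccn3 state and at 7.27 and 6.26 CPM in the late inner-like state. In each mouse of each library the leptomeningeal-like states were thus the high ones, with a lowest value of 197 CPM in the male mouse labelled control (Lama1 state), and the other states the low ones, with a highest value of 22.4 CPM. The log2 ratio of the Ranbp3l state over the rest was 2.38 [2.21 to 2.55] and 2.21 [2.05 to 2.37], and that of the late inner-like state was -3.86 and -4.48.

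Aldh1a1 took another course. It was highest in the Lama1 state, at 160 CPM [138 to 184] and 121 CPM [104 to 140], and lowest in the Ranbp3l state, at 12.8 CPM [9.42 to 16.9] and 13.5 CPM [10.1 to 17.7]. The late inner-like state had 71.3 and 56.9 CPM and the Prmt8 Ccn3 state 51.5 and 47.9 CPM, and neither passed 1.5-fold against the rest. The Ranbp3l state therefore carried Aldh1a2 with little Aldh1a1, and the Lama1 state carried both.

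Stra6 was largely a gene of the Ranbp3l state, at 106 CPM [95.8 to 117] and 104 CPM [93.7 to 114], with a log2 ratio over the rest of 2.69 [2.43 to 2.96] and 3.01 [2.73 to 3.31]. A UMI was found in 23.3% of 1284 and 23.5% of 1228 nuclei. The Prmt8 Ccn3 state followed at 20.8 and 23.5 CPM, the Lama1 state at 19.7 and 8.45 CPM, and the late inner-like state at 6.28 and 5.45 CPM. The female and male mice had 92.5 and 122 CPM in the Ranbp3l state of the control-labelled library, and 107 and 109 CPM in the cKO-labelled library, so that mice differed less than states did.

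Aldh1a3 had few UMIs in any state, and most lay in the late inner-like state, with 12 of 20 UMIs (3.96 CPM [2.05 to 6.92]) in 7 nuclei and 32 of 50 UMIs (6.46 CPM [4.42 to 9.12]) in 17 nuclei. Of these, 6 and 9 UMIs lay in 1 nucleus of each library. Crabp2 was spread over the late inner-like (9.25 and 6.86 CPM), Prmt8 Ccn3 (6.40 and 4.94 CPM) and Ranbp3l (6.39 and 5.87 CPM) states, whose intervals overlap, and had 2 and 4 UMIs in the Lama1 state. Cyp26b1 was highest in the Lama1 state, at 8.54 CPM [4.10 to 15.7] and 33.2 CPM [24.7 to 43.6], and at most 3.30 CPM in the other states. Its 10 UMIs in the control-labelled library lay in 8 nuclei and its 51 UMIs in the cKO-labelled library in 14 nuclei, of which 1 nucleus had 16. Of those 51 UMIs, 46 were from the female mouse.

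The receptors differed less between states. Rara stood at 59.1 and 62.8 CPM in the late inner-like state, 44.6 and 44.5 CPM in the Prmt8 Ccn3 state, 37.3 and 37.5 CPM in the Ranbp3l state, and 38.5 and 35.1 CPM in the Lama1 state, and no state passed 1.5-fold. Rarb was lower in the late inner-like state, at 125 CPM [113 to 138] and 170 CPM [158 to 182], than in the Prmt8 Ccn3 (507 and 509 CPM), Ranbp3l (420 and 503 CPM) and Lama1 (393 and 364 CPM) states. The log2 ratio of the late inner-like state over the rest was -1.90 [-2.05 to -1.75] and -1.51 [-1.62 to -1.40]. The state with the least Aldh1a2 and Stra6 was thus the state with the least Rarb. The Prmt8 Ccn3 state went the other way, with Aldh1a2 at only 15.6 and 12.4 CPM and the highest Rarb CPM in each library.

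**Figure D2:**
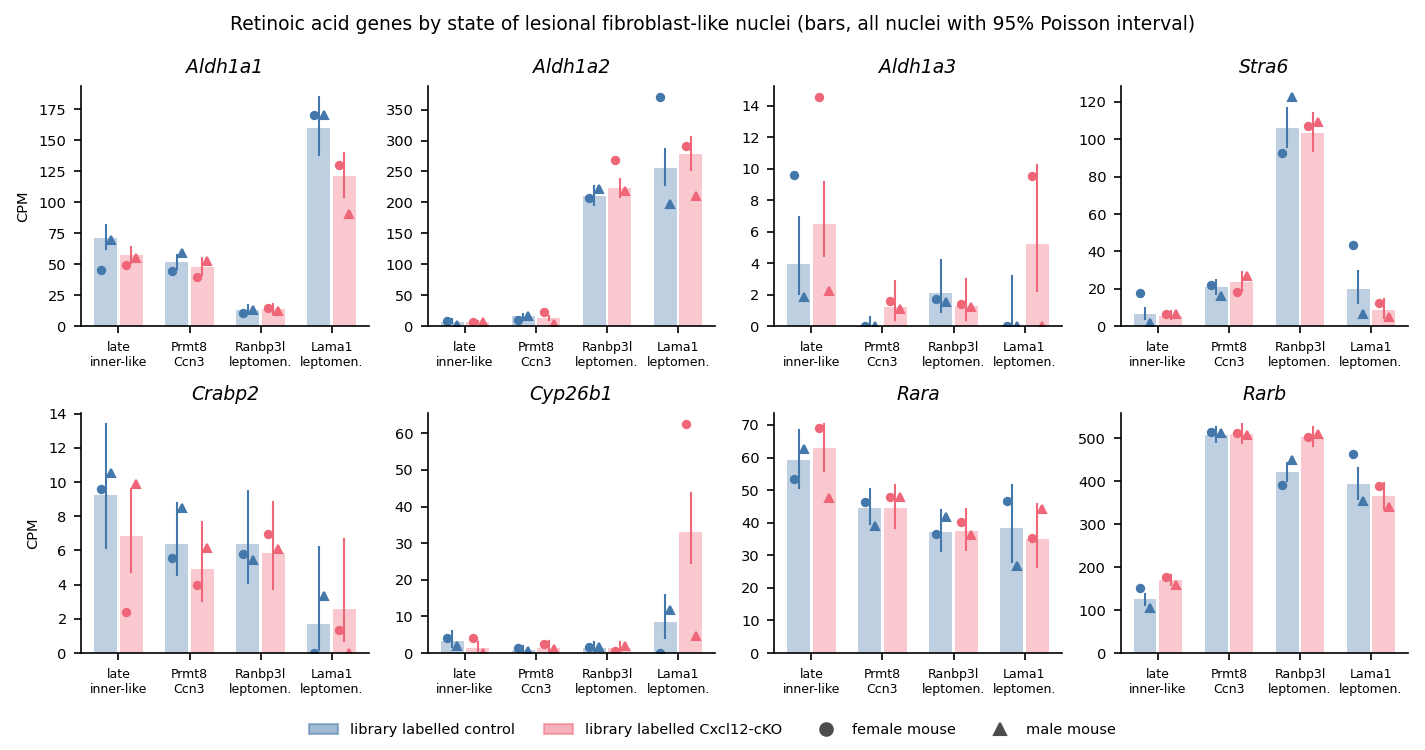
Level in CPM of each gene by state of lesional fibroblast-like nuclei (Rbp4, with at most 3 UMIs in a state and library, is left out), with the control-labelled library in blue and the cKO-labelled library in red. Bars are all nuclei with 95% Poisson intervals, circles the female mouse and triangles the male mouse. Aldh1a2 is high in both leptomeningeal-like states, Stra6 in the Ranbp3l state alone, Aldh1a1 in the Lama1 state, and Rarb is lowest in the late inner-like state.

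By count, the Ranbp3l state had 2 of the 8 genes tested past 1.5-fold higher in both libraries (Aldh1a2 and Stra6, beside 6.13% of 14412 genes) and 2 lower (Aldh1a1 and Cyp26b1, beside 8.14%). The Lama1 state had 3 higher (Aldh1a1, Aldh1a2 and Cyp26b1, beside 7.81%) and 2 lower (Stra6 and Crabp2, beside 7.83%). The late inner-like state had 1 higher (Aldh1a3, beside 7.62%) and 3 lower (Aldh1a2, Stra6 and Rarb, beside 8.03%). The Prmt8 Ccn3 state had 1 higher (Rarb, beside 4.68%) and 4 lower (Aldh1a2, Aldh1a3, Stra6 and Cyp26b1, beside 9.53%). Some of these calls did not hold in each mouse. Cyp26b1 in the Ranbp3l state had 5 UMIs in each library, at -0.76 [-2.61 to 0.54] and -2.13 [-3.92 to -0.95], and turned to 0.15 with the female mice alone in the control-labelled library and to 1.07 with the male mice alone in the cKO-labelled library. With the female mice alone in the control-labelled library, Cyp26b1 and Stra6 in the Lama1 state turned to -0.20 and 0.048, and with the male mice alone in the cKO-labelled library Cyp26b1 in the Prmt8 Ccn3 state turned to 0.12. Crabp2 in the Lama1 state of the cKO-labelled library had 4 UMIs and an interval that includes no difference.

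Among the other pathway genes, 33 were tested in the Ranbp3l state, and 3 were higher and 5 lower in both libraries, beside 6.13% and 8.14% of all genes tested. The 3 higher ones were Rdh10 (log2 ratio 1.85 and 2.25), Tgm2 (0.84 and 1.20) and Rdh14 (0.60 and 0.73), named here after their values were seen. Rdh10 encodes the retinol dehydrogenase of the first oxidation step. It stood at 74.8 CPM [66.3 to 84.1] and 111 CPM [101 to 122] in the Ranbp3l state, at 67.5 CPM [53.4 to 84.1] and 57.2 CPM [45.9 to 70.5] in the Lama1 state, at 15.6 and 16.3 CPM in the Prmt8 Ccn3 state, and at 13.2 and 18.8 CPM in the late inner-like state. The intervals of both leptomeningeal-like states overlap in the control-labelled library and not in the cKO-labelled one. Tgm2 stood at 21.6 and 29.8 CPM in the Ranbp3l and at 32.5 and 24.7 CPM in the Lama1 state, and Rdh14 at 17.3 and 16.8 CPM and at 17.9 and 7.15 CPM. Aldh1a2 and Rdh10 thus stood higher in both leptomeningeal-like states than in the other states, and Stra6 was high in the Ranbp3l state. Rdh10 was a leading gene of the nuclei led by Prg4 and Kng2 in the finer subclustering. Aldh1a2 was a leading gene of a fibroblast-like cluster led by Kng2 and Prg4 among all nuclei. How far these genes lay in nuclei with leptomeningeal markers was not tested. Of the same 33 genes, 3 were higher and 3 lower in the late inner-like state, beside 7.62% and 8.03% of all genes. In the Prmt8 Ccn3 state 1 was higher and 5 lower, beside 4.68% and 9.53%. In the Lama1 state 5 were higher and 2 lower, beside 7.81% and 7.83%. Several of these counts lay near the background.

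**Figure D3:**
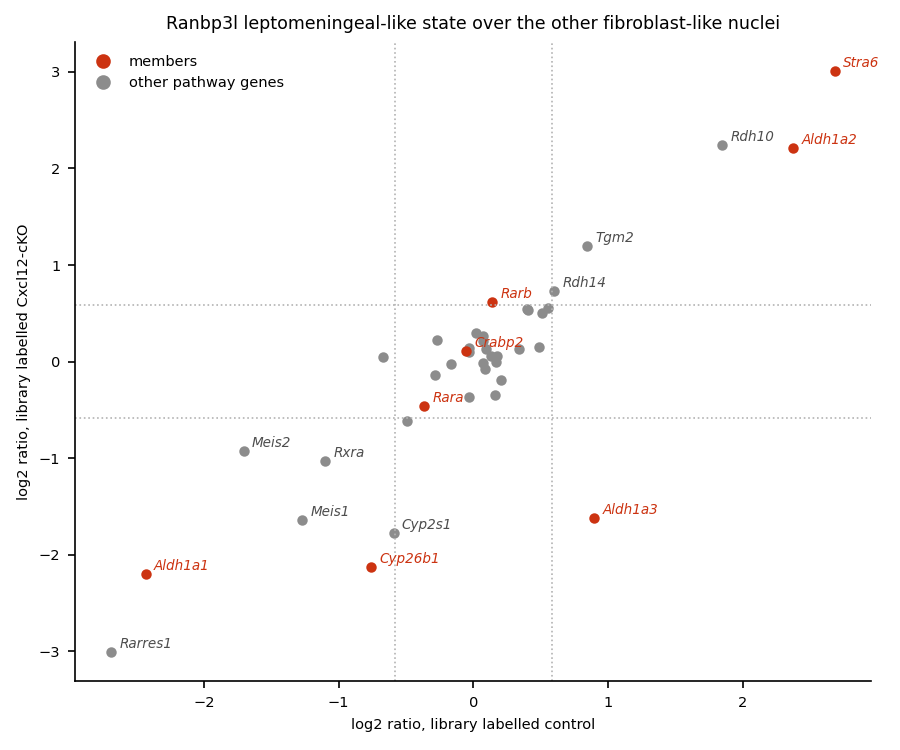
Log2 ratio of the Ranbp3l state over the other lesional fibroblast-like nuclei, in the control-labelled library (horizontal axis) and the cKO-labelled library (vertical axis), for 8 of the 9 genes (red) and the other pathway genes tested (grey). Dotted lines mark 1.5-fold. Stra6, Aldh1a2 and Rdh10 lie at the upper right, and Aldh1a1 and Rarres1 at the lower left, Rarres1 with 1 UMI in the state in each library.

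Among lesional fibroblast-like nuclei of at least 1000 UMIs, those with Aldh1a2 had Stra6 more often than those without, though most nuclei with either gene had no UMI of the other. Stra6 was found in 18.9% [15.8 to 22.4] of the fibroblast-like nuclei with Aldh1a2 and in 9.69% [8.71 to 10.7] of those without in the control-labelled library, and in 16.0% [13.2 to 19.2] and 9.05% [8.10 to 10.1] in the cKO-labelled library. Nuclei with and without Aldh1a2 had similar median depths (2957 and 3162 UMIs, and 3125 and 3168). Stra6 was found in 3.81% [2.31 to 5.88] of nuclei with Aldh1a1 and in 12.03% [11.0 to 13.2] of those without, and in 4.59% and 10.9% in the cKO-labelled library, although nuclei with Aldh1a1 were deeper (3944 against 3066 UMIs, and 4024 against 3062). Rarb was found in 68.7% [64.1 to 73.1] of nuclei with Stra6 and 52.1% [50.4 to 53.8] of those without, and in 73.8% and 53.2% in the other library. Within the Ranbp3l state the intervals for nuclei with and without Aldh1a2 overlapped, and Stra6 was found in 24.9% [20.4 to 29.7] and 23.0% [20.3 to 25.8] in the control-labelled library and in 22.1% [17.9 to 26.7] and 24.2% [21.4 to 27.3] in the cKO-labelled library. In the Prmt8 Ccn3 state of the control-labelled library they did not overlap, at 17.6% [8.40 to 30.9] of 51 nuclei with and 6.63% [5.41 to 8.04] of those without Aldh1a2, where nuclei with Aldh1a2 were deeper (4619 against 3644 UMIs). Within the Ranbp3l state Rarb was found in 64.8% [59.0 to 70.2] of nuclei with Stra6 and 53.5% [50.3 to 56.7] of those without, and in 73.0% [67.4 to 78.1] and 59.7% [56.5 to 62.9] in the other library, and nuclei with Stra6 were deeper (2935 against 2586 UMIs, and 3415 against 2597). The part of depth in these differences was not tested.

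The genotype comparison asked whether the genes differed between the libraries within lesional fibroblast-like nuclei. Of 8 genes tested, 2 were past 1.5-fold higher in the cKO-labelled library, Aldh1a3 and Cyp26b1, beside 5.47% of 16520 genes, and none was lower, beside 4.16%. The other 6 genes had log2 ratios from -0.24 (Crabp2) to 0.15 (Aldh1a2). The median of the 8 was 0.01, beside 0.00 over all genes. In both mice, 1 of 8 was past 1.5-fold higher, Aldh1a3, beside 2.5% of genes, and none was lower, beside 1.85%.

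For the female mice Aldh1a3 had 10 and 35 UMIs and for the male mice 5 and 9, with log2 ratios of 1.95 [0.96 to 3.18] and 0.67 [-1.01 to 2.65], and 1.26 [0.51 to 2.11] in all. Leaving out the nucleus with the most UMIs in each library gave 1.48. Cyp26b1 had 10 and 57 UMIs for the female and 13 and 7 for the male mice, with log2 ratios of 2.65 [1.72 to 3.84] and -0.97 [-2.58 to 0.42]. The mice thus went opposite ways for Cyp26b1, and its pooled log2 ratio of 1.15 [0.52 to 1.83] rested on the female mice.

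Aldh1a2 stood at 0.15 [0.04 to 0.26] in all, at 0.53 in the female and at -0.03 in the male mice. Stra6 stood at -0.11 [-0.28 to 0.06], Rara at 0.08 [-0.08 to 0.24] and Rarb at -0.06 [-0.12 to -0.01]. For these the intervals of the difference lie within 1.5-fold. Within states, Rarb was higher in the cKO-labelled library in the late inner-like state, at 0.44 [0.27 to 0.62], and in the Ranbp3l state, at 0.26 [0.16 to 0.35], with the same direction in both mice each time (0.21 and 0.60, and 0.36 and 0.18, in female and male). It stood at 0.01 in the Prmt8 Ccn3 and at -0.11 in the Lama1 state. The naming markers of the late inner-like state differed between libraries, with Fgf13 at 294 and 120 CPM, Cdh18 at 439 and 529 CPM and Sema3c at 241 and 186 CPM. In the finer subclustering the late inner nuclei were 635 and 732, and unnamed nuclei led by Ebf3 were 132 and 393. The part of such differences in the Rarb values was not tested. Past 1.5-fold within a state were Aldh1a3 in the late inner-like state, at 0.67 [-0.29 to 1.80] (1 of 7 genes, beside 5.87%), and, in the Lama1 state, Cyp26b1 at 1.90 [0.96 to 3.10] (1 of 6, beside 7.05%) and Stra6, lower with 23 and 13 UMIs at -1.19 [-2.32 to -0.18] (1 of 6, beside 7.19%). The cKO-labelled library also held more late inner-like nuclei (31.1% against 21.6% of lesional fibroblasts), the state with the least Rarb, and fewer of the Prmt8 Ccn3 state (26.4% against 37.5%).

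Of the 54 pathway genes, 36 were tested between libraries, with 2 higher and 1 lower in the cKO-labelled library, beside the same 5.47% and 4.16%. Fabp5 was higher, with 56 and 97 UMIs and a log2 ratio of 0.75 [0.26 to 1.25]. Dhrs9, a retinol dehydrogenase, was higher with 11 and 21 UMIs, at 0.86 [-0.23 to 2.09]. Rxrg was lower, with 15 and 9 UMIs, at -0.75 [-2.15 to 0.51]. Of these only Rxrg was past 1.5-fold in both mice. Fabp5 had the most UMIs of the retinoic acid carriers in the list. Of the genes with the most UMIs in other groups of the list, the log2 ratio was -0.09 for Dhrs3, which turns retinal back to retinol, -0.40 for Cyp2s1, 0.30 for Rora and -0.24 for Zic1.

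**Figure D4:**
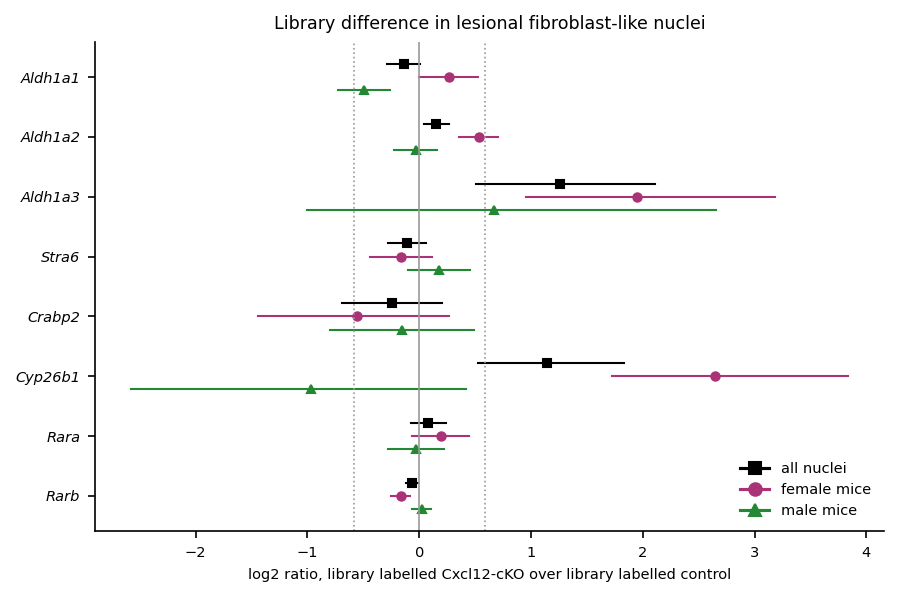
Log2 ratio of the cKO-labelled library over the control-labelled library in lesional fibroblast-like nuclei, for all nuclei (squares), the female mice (circles) and the male mice (triangles), with 95% counting intervals. Dotted lines mark 1.5-fold. All but Aldh1a3 and Cyp26b1 lie within 1.5-fold when all nuclei are taken, and the mice part for Cyp26b1.

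In lesional astrocyte-like nuclei Aldh1a1 was lower in the cKO-labelled library, with a log2 ratio of -0.87 [-0.998 to -0.75]. The female mice had 666 CPM [616 to 718] and 355 CPM [319 to 394], and the male mice 609.98 CPM [549 to 676] and 371 CPM [330 to 417], so that both mice labelled control lay above both labelled Cxcl12-cKO. Of the 5 genes tested it was the only one past 1.5-fold lower, beside 9.27% of 12624 genes, and it was so in both mice, beside 4.4% of genes. A UMI was found in 70.0% [65.9 to 73.9] and 51.3% [47.0 to 55.7] of nuclei, and in 43.2% and 25.6% when thinned to 1000 UMIs, with 4 and 3 nuclei left out. Nuclei with 8 or more UMIs were 9.12% and 3.80%. Median depth was 3638 and 4008 UMIs, and the part of depth was not tested.

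Markers moved as well in these nuclei. The 8 fibroblast markers summed to 999.5 CPM in the control-labelled library and 464 CPM in the cKO-labelled library, with none at 0, and the 8 astrocyte markers to 5357 and 6559 CPM. Among astrocyte markers, Slc1a3 stood at a log2 ratio of 0.56 and Gfap at 0.34, while the gap junction genes Gja1 and Gjb6 stood at -0.51 and -0.67. The part of these in the Aldh1a1 difference was not tested. Aldh1a1 itself stood at 54.4 and 49.5 CPM in fibroblast-like nuclei, and at 160 and 121 CPM in their Lama1 state. In the 37 and 45 parenchymal astrocyte-like nuclei Aldh1a1 stood at 207 CPM [146 to 284] and 160 CPM [113 to 220], with overlapping intervals.

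**Figure D5:**
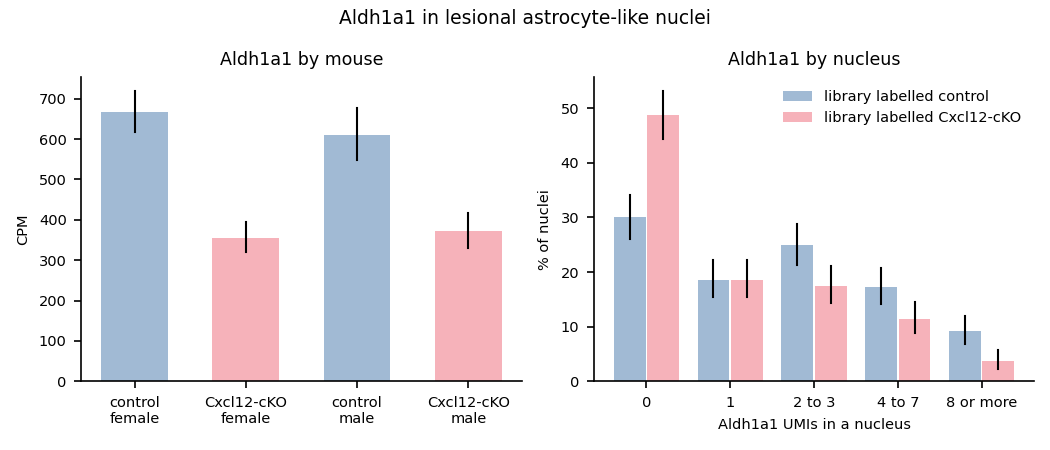
Aldh1a1 in lesional astrocyte-like nuclei. Left, level in CPM by library label and mouse, with 95% Poisson intervals; right, share of nuclei (%) by number of Aldh1a1 UMIs, with 95% binomial intervals. Both mice labelled control lie above both labelled Cxcl12-cKO, and nuclei with 0 UMIs are 29.98% and 48.7%.

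Aldh1a2 in lesional astrocyte-like nuclei had 22 and 62 UMIs, a log2 ratio of 1.33 [0.63 to 2.12] and 1 of 5 genes higher beside 5.99% of genes. Of the 62 UMIs, 32 were in 1 nucleus, without the top nuclei the log2 ratio was 0.57, and in the male mice it was -2.27. In myeloid-like nuclei Aldh1a2 (14 and 35 UMIs) and Rarb (65 and 164 UMIs) were higher, 2 of 5 genes tested beside 5.7%, but 30 of the Rarb UMIs were in 1 nucleus. Without the top nuclei Rarb stood at 0.65 [0.20 to 1.13]. Neither passed 1.5-fold in both mice. Stra6 did so (beside 2.62% of genes) with 1 and 7 UMIs in the female and 1 and 4 in the male mice, but over all myeloid-like nuclei it had 8 and 14 UMIs at 2.07 and 2.43 CPM, a log2 ratio of 0.20 [-1.12 to 1.69], with most of the control UMIs in nuclei given to neither mouse. In the remaining classes Aldh1a2 was lower in osteoblast lineage-like nuclei (21 and 2 UMIs, beside 10.8% of genes) and in lesional excitatory neuron-like nuclei (18 and 2 UMIs, beside 6.69%), and Aldh1a1 in lesional inhibitory neuron-like nuclei (18 and 2 UMIs, beside 11% of genes). Higher were Rara in T cell-like nuclei (13 and 18 UMIs, beside 13.5%), Rbp4 in lesional inhibitory neuron-like nuclei (12 and 10 UMIs, beside 8.2%), Rarb in oligodendrocyte-like nuclei (36 and 63 UMIs, beside 9.38%) and Aldh1a2 in parenchymal excitatory neuron-like nuclei (14 and 26 UMIs, beside 4.53%), the last also in both mice (beside 2.04%). In these remaining classes the interval of the log2 ratio included 0 for each but Aldh1a1 in inhibitory neuron-like nuclei.

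In neurons the picture was one of Rbp4 and Rarb. In parenchymal inhibitory neuron-like nuclei (302 and 328) Rbp4 had 79 UMIs at 18.4 CPM [14.6 to 23.0] and 103 UMIs at 19.6 CPM [16.0 to 23.8], with a log2 ratio over the other parenchymal nuclei of 3.55 [3.07 to 4.04] and 3.64 [3.19 to 4.11]. It was the only 1 of 8 genes tested past 1.5-fold higher there, beside 12.9% of 17901 genes. Aldh1a1, Aldh1a3 and Stra6 were lower, beside 15.3%, but Aldh1a3 and Stra6 had 0 and 1 UMIs each and intervals that include no difference. In parenchymal excitatory neuron-like nuclei Aldh1a3 was higher, beside 9.06% of genes, and Aldh1a2, Rbp4 and Rarb were lower, beside 19.3%. A UMI of Rbp4 was found in 17.5% and 17.4% of parenchymal inhibitory neuron-like nuclei, against 2.33% and 2.30% of the deeper excitatory neuron-like nuclei. Rbp4 stood at 5.25 and 7.68 CPM in striatal projection neuron-like nuclei and at 1.40 and 1.30 CPM in excitatory neuron-like nuclei. In lesional inhibitory neuron-like nuclei (101 and 62) it had 12 and 10 UMIs at 9.10 CPM [4.70 to 15.9] and 15.5 CPM [7.44 to 28.5].

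Rarb reached its highest level in striatal projection neuron-like nuclei, which carry Drd1, Drd2 and the other markers of the striatum, a region below the cortex. The 111 and 125 parenchymal nuclei of this class had 2876 UMIs at 1678 CPM [1617 to 1740] and 3290 UMIs at 1804 CPM [1743 to 1867]. They held 67.0% and 67.8% of all parenchymal Rarb UMIs. The log2 ratio over the other parenchymal nuclei was 5.76 and 5.74, and 2 of 8 genes were past 1.5-fold higher, Rarb and Rbp4, beside 9.98% of genes. Aldh1a1, Aldh1a3 and Rara were past 1.5-fold lower there, beside 18.7%, but Aldh1a3 had 0 UMIs in both libraries and intervals that include no difference, so that its ratio depends on the pseudocount. A UMI of Rarb was found in 99.1% and 100% of them, against 39.1% and 36.6% of inhibitory and 22.4% and 26.9% of excitatory neuron-like nuclei. Thinned to 1000 UMIs the shares were 73.9% and 76.8%, against 6.62% and 2.13%, and 2.55% and 2.45%. The lesion of the control-labelled library held 11 such nuclei and that of the cKO-labelled library 52, with 271 and 1563 Rarb UMIs. The share of lesional Rarb UMIs in fibroblasts, 79.8% and 66.5%, is therefore set by striatal nuclei as well as by fibroblasts, and is no measure of the level in fibroblasts.

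Lesional and parenchymal nuclei of a class could be set side by side for excitatory and inhibitory neurons. Rara was higher in lesional excitatory neuron-like nuclei, with 11.8 CPM [9.53 to 14.5] against 7.25 CPM [6.45 to 8.12] in the control-labelled library and 12.2 CPM [8.70 to 16.6] against 6.16 CPM [5.41 to 6.98] in the cKO-labelled library. The log2 ratio was 0.71 [0.35 to 1.05] and 1.00 [0.46 to 1.47], and it was the only 1 of 8 genes past 1.5-fold higher in both libraries, beside 4.07% of 17349 genes. Rbp4 was lower, with 4 and 1 lesional UMIs, beside 17.8% of genes.

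The excitatory class joined 7 clusters, and the CPM of Rara was higher in the lesion in 5 of them in each library, with at most 35 lesional UMIs in a cluster. The 8 fibroblast markers summed to 212 and 146 CPM in lesional and to 89.1 and 86.4 CPM in parenchymal excitatory neuron-like nuclei, so fibroblast markers moved with the same contrast, and their part was not tested. For inhibitory neuron-like nuclei 3 genes were tested and none was past 1.5-fold in both libraries, beside 3.03% higher and 13.9% lower among all genes.

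Genes whose levels followed each of the 9 were sought over 27 profiles of class, region and library with at least 50 nuclei, among 16382 genes with at least 200 UMIs, by Pearson's r of log2(CPM + 10), as a description, since profiles of 1 library share depth and tissue. Aldh1a2 was most like Cyp1b1 (r = 0.88), Ranbp3l (0.87) and Car13 (0.87), and Stra6 most like Tfap2b (0.94), A530032D15Rik (0.92) and Slc22a8 (0.92). Aldh1a1 was most like Col4a6 (0.94), Greb1 (0.92) and Gpam (0.92). Rbp4 was most like Pdzd7 (0.93), Slc32a1 (0.92), the vesicular transporter of inhibitory neurons, and Gm14204 (0.92). Crabp2 was most like Fbln7 (0.90), Gjb2 (0.89) and Foxc2 (0.85), and Cyp26b1 most like Micall2 (0.89), Ttpa (0.87) and Cebpd (0.86). Rara was most like Cnn2 (0.94), Gm56906 (0.94) and Usp34 (0.93), and Rarb most like Clic6 (0.90), Gm12339 (0.89) and Ric8b (0.87). Aldh1a3, with 150 UMIs, was too rare for this.

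Few fibroblast-like nuclei came from the parenchyma, 41 and 46. There Aldh1a2 stood at 62.3 CPM [31.1 to 112] and 126 CPM [81.6 to 186], Aldh1a1 at 113 CPM [69.2 to 175] and 75.7 CPM [42.3 to 125], and Rarb at 329 CPM [250 to 425] and 247 CPM [183 to 327]. The intervals for Aldh1a2 overlap those of lesional fibroblasts in both libraries, and those for Aldh1a1 lie above that of lesional fibroblasts in the control-labelled library alone. Cyp26b1 and Aldh1a3 had 0 UMIs in these nuclei in both libraries, which allows up to 17.001 and 15.1 CPM.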

How the data were processed

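Nuclei were profiled by droplet 3′ single-nucleus RNA sequencing (Chromium, with sample tags for region). The authors deposited 4 filtered matrices of raw UMI counts per gene and nucleus, for lesion and parenchyma of each library. The submitters' processing notes name Cell Ranger 9.0.0 and GRCm39. No source used here gives a correction for ambient RNA.

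Barcodes in the 2.5% tails of UMIs (757.2 to 36243.8 kept) and genes (584.2 to 6418.6), or above 8.75% mitochondrial UMIs, were left out. Nuclei of all matrices were clustered together with scanpy 1.11.5 (3000 variable genes without the 9 genes and the pathway list, 30 components, 20 neighbours, resolution 1), and lesional fibroblast-like nuclei again (2000 genes, resolution 0.25). A class needed at least 3 raised markers of its list. No doublet caller was used for the values given: Scrublet marked 0 nuclei in both control-labelled matrices and 280 (3.33%) and 3 (0.0933%) in the cKO-labelled ones, and had not worked. Nuclei were assigned to the female or male mouse by Xist against Ddx3y, Uty, Kdm5d and Eif2s3y.

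UMIs were summed per group. Log2 ratios had 0.5 added to each sum, and the threshold was 1.5-fold with at least 20 UMIs over the groups compared, in both libraries or, where said, in both mice. With 1 library per genotype no test was made. Intervals came from SciPy 1.17.1, and sums, intervals and calls were tested on simulated data. Python 3.11.15, numpy 2.4.6, pandas 2.3.3, scikit-learn 1.9.0, igraph 0.11.9 and matplotlib 3.10.9 were used.

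The 9 genes, the class and state markers and the 54 pathway genes were chosen with earlier results of these data known. Pathway genes are named if they had at least 20 UMIs in lesional fibroblast-like nuclei and passed 1.5-fold in both mice, or had the most UMIs of their sublist, and 1 such gene is not reported here. Others named were chosen after their values were seen (Rdh10, Tgm2, Rdh14, Dhrs9, Rarres1, Bco1 and Cyp26a1).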

Additional observations from a re-analysis of the deposited data

Results flagged for a closer look

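For 2 results the female and the male mice moved in opposite directions between the libraries, with intervals on opposite sides of no difference. The difference between the mice was not tested, and each mouse is 1 animal. Aldh1a1 in lesional fibroblast-like nuclei was higher in the cKO-labelled library in the female mice, with a log2 ratio of 0.26 [0.00203 to 0.53] from 237 and 249 UMIs, and lower in the male mice, at -0.49 [-0.73 to -0.26] from 356 and 275 UMIs. The share of the Lama1 state, where Aldh1a1 was highest, moved in the same directions, from 6.96% to 16.0% and from 11.2% to 8.04%. Its part was not tested. Aldh1a2 in the Prmt8 Ccn3 state was higher in the female mice, at 1.15 [0.35 to 1.93] from 31 and 28 UMIs, and lower in the male mice, at -2.45 [-4.28 to -1.21] from 35 and 5 UMIs.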

How the results depend on the processing

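Each count of genes past 1.5-fold was recomputed under 16 other settings. Of 161 such counts, 129 stayed within 1.5 times. Of 858 values of single genes, 734 moved by less than their interval and 117 by more, while 7 reversed. Among the 734 are values that could not move: 96 each under 2-fold and no minimum of UMIs, 43 under each library alone. Nor could the 32 under the finer subclustering, which left the classes as they were. Values by state were not recomputed under another clustering. A value was counted as reversed only where the gene had been past 1.5-fold. Others, such as Aldh1a1 between libraries in fibroblasts with the female mice only, changed direction without being counted. Counts that moved are given from here. The region counts were 1 gene higher and 1 lower in lesional excitatory neurons, the fibroblast class had 1 gene lower, and the pathway genes were 2 higher and 1 lower between libraries.

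With all barcodes kept, region counts were 2 and 0, and 2 pathway genes were lower. With the top 10% of Scrublet scores removed, 0 pathway genes were lower. With nuclei assigned by their own markers, 0 genes in place of 4 were highest in control-labelled fibroblasts, region counts were 7 and 2, 0 genes were lower in fibroblasts, and 4 pathway genes were lower. With per-nucleus CPM, 0 genes were lower in fibroblasts and pathway counts were 1 and 0. With no minimum of UMIs, 7 genes were higher in the lesion and pathway counts were 9 and 7. With 2-fold, 0 genes were higher in the lesion, 0 lower in fibroblasts, and pathway counts were 0 and 0. With the control library alone, region counts were 4 and 2 and 2 genes were lower in fibroblasts; with the Cxcl12-cKO library alone, region counts were 2 and 3. The last settings, and leaving out the nucleus with the most UMIs, were chosen after seeing the data.

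With the female mice only, 7 genes in place of 3 were highest in cKO-labelled fibroblasts, 0 were lower in fibroblasts, and pathway counts were 1 and 0. There Cyp26b1 in the control-labelled library reversed to 0.15 in the Ranbp3l and -0.20 in the Lama1 state, and Stra6 to 0.048 in the Lama1 state. With the male mice only, between libraries 0 genes in place of 2 were higher and 1 in place of 0 was lower in fibroblasts, 0 genes were lower in fibroblasts than elsewhere, and 2 pathway genes were lower. Aldh1a2 in astrocytes reversed to -2.27, Cyp26b1 between libraries to -0.97, and Cyp26b1 in the cKO-labelled library to 0.12 in the Prmt8 Ccn3 and 1.07 in the Ranbp3l state. The cause was not tested. Median-of-ratios scaling subtracted between -0.07 and 0.16 from the log2 ratios of all genes, according to the contrast. No paired analysis was possible because the labels give 1 library per genotype, so that library and genotype cannot be told apart, and values by mouse of the pool are given without a test. Depth limits Aldh1a3, Crabp2, Cyp26b1 and Rbp4, which had 150 to 374 UMIs in all.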

Other observations

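Within excitatory neuron-like nuclei, 2 synthesis genes lay in single clusters, which were chosen after their values were seen. Aldh1a1 stood at 14.7 CPM [9.70 to 21.4] and 34.9 CPM [26.4 to 45.3] in the cluster led by Oprk1, in 124 and 101 nuclei of both regions, and between 2.38 and 7.30 CPM in the other 6 excitatory clusters. Aldh1a3 had 27 and 14 of its UMIs in the cluster led by Otof, at 2.41 CPM [1.59 to 3.504] and 1.31 CPM [0.716 to 2.20], and at most 0.842 CPM in the others. No cortical layer was assigned to these clusters.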
